A study of Macaca mulatta with 16 samples.

Results

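Translation initiation factors are the proteins that bring the ribosome, the initiator tRNA and an mRNA together, and their genes carry symbols that begin with EIF and a number. Every probe set whose platform annotation gave such a symbol, alone or in a list of several, was taken from both human Affymetrix arrays of the study, with the Y-linked EIF1AY left out. This gave 94 of the 22283 probe sets of the U133A array and 39 of the 22645 of the U133B array (44928 in all), under 53 of the 19044 gene symbols of both annotations. The rule reads gene symbols and uses no intensity or test.

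The study profiled extraocular muscle, the muscles that move the eye, of adult rhesus monkeys. Orbital layer and global layer, the outer and inner fibre layers of these muscles, were laser microdissected and their mRNA was T7-amplified before labelling, while whole lateral rectus and whole medial rectus went through the standard Affymetrix protocol. Each of the 4 groups had 2 U133A and 2 U133B arrays, 16 in all. No drug, gene change or other treatment is named in the labels, so all groups share normal adult muscle and differ by region and, between layers and whole muscle, by amplification. The labels do not tie arrays to animals, so every p-value measures only the spread between these arrays, which may be technical. The title and source name disagree for orbital layer replicate 1 on U133A, whose source name says global layer, and the source name of global layer replicate 1 on U133B does not say which layer. Groups follow the titles, and the layer results are also given without these arrays.

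Initiation begins when the small ribosomal subunit, held open by EIF1, EIF1A and the many-subunit EIF3, receives the initiator tRNA from EIF2 bound to GTP. The mRNA is recruited through its cap by EIF4E, the scaffold EIF4G and the helicase EIF4A, which EIF4B and EIF4H stimulate, and the 4E-binding proteins block this step when mTORC1 is inactive. EIF5 and EIF5B then allow GTP hydrolysis and joining of the large subunit, EIF2B reloads EIF2 with GTP, and the EIF2AK kinases stop that reloading under stress.

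Between layers and whole muscle, 35 of 77 EIF probe sets tested on U133A (45.5%) and 7 of 20 on U133B (35%) were past an adjusted p of 0.05 in limma, in both directions. Over all probe sets tested the shares were 48.7% and 42.8%. No EIF probe set passed between orbital and global layer or between medial and lateral rectus. Probe sets of EIF3E, EIF3L and EIF3D, subunits of EIF3, of EIF4G2, of EIF4EBP2 and of EIF5B were higher in layers. For EIF4EBP2 this was 1 of 3 tested probe sets, and the U133A call of EIF4G2 was lost after quantile normalization. All 4 probe sets of the helicase cofactors EIF4B and EIF4H, and single probe sets of EIF2S1, EIF4G1 and EIF2AK1, were lower in layers. 5 genes, EIF3K, EIF4E, EIF4E2, EIF5 and EIF5B, had probe sets past the threshold in opposite directions; for EIF4E2 and EIF5 this rests on a probe set that was dim in layers. Because the tissue is bulk, fewer cells of a type and less RNA per cell cannot be told apart, and the tissue, the microdissection and the amplification cannot be told apart in any difference between layers and whole muscle.

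The deposited values are linear intensities, 1 per probe set and array, with no unit beyond the brightness of the hybridised probes. Human probes were hybridised with macaque RNA, so a level is not compared between probe sets. Differences were tested on the log2 scale with limma on all probe sets bright enough on average in the groups compared (a mean log2 intensity no lower than the median of their array type), and the threshold was an adjusted p of 0.05 (Benjamini-Hochberg over all probe sets tested on that array type). Of the EIF probe sets on U133A, 76 passed that filter for orbital against global layer, 80 for medial against lateral rectus and 77 for layers against whole muscle. The corresponding numbers on U133B were 20, 24 and 20. A further 24 EIF probe sets, 12 on each array type, passed it in no comparison, and 51 of the 53 symbols had at least 1 probe set that passed.

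The whole tables set the frame for these values. All 8 skeletal muscle markers checked were measured above the filter on U133A, with a summed intensity of 499749 to 588432 in layers and 583738 to 707505 in whole muscle. TNNC2 and CKM were past the threshold and lower in layers. No marker of this list was called higher, and 3 of the 8 log2 differences were above 0. Smooth muscle and pericyte markers had 3 probe sets higher in layers on U133A (5 markers, summed 12686 to 15911 in layers and 6819 to 9893 in whole muscle). Of these probe sets, 201497_x_at and 207961_x_at of MYH11 passed the filter only through the layers. Their whole-muscle means were 610 and 495.1, under the filter of 654, so these calls are a description. The other call, of ACTA2, reached the filter on both sides. On U133B the 1 tested probe set of the smooth muscle and pericyte markers, of TAGLN, was lower in layers by -0.91 ± 0.23 (adjusted p = 0.00755). The 3 markers present there summed to 4740.4 to 6059 in layers and 6755 to 10911 in whole muscle. On U133A 4 immune markers (summed 3036 to 5464 in layers and 6526 to 8614 in whole muscle) had 1 lower probe set. The 5 endothelial markers summed to 12451 to 19856 in layers and 16038 to 22740 in whole muscle, with 2 lower probe sets, and fibroblast markers had 3 higher and 4 lower of 14 probe sets, and 2 and 1 of 4 on U133B. Red blood cell markers had 0 of 3 tested probe sets past the threshold on U133A and 1 of 1, lower in layers, on U133B. That U133B probe set, 244205_at of ALAS2, passed the filter only through whole muscle (mean 2495, against 671 in layers). The filter on U133B was 803, so the ALAS2 call is a description. No marker of Schwann cells and nerve reached the filter. The ratio of the 3′ to the 5′ control probe set of ACTB, a measure of how complete the labelled RNA is, was 2.84 to 5.87 in layers and 0.716 to 1.04 in whole muscle on U133A, and 3.54 to 5.29 against 0.512 to 0.933 on U133B. The same ratio for GAPDH overlapped on U133A, at 1.497 to 2.92 in layers and 0.947 to 1.66 in whole muscle, and did not on U133B, at 2.04 to 4.33 against 1.18 to 1.74. The part of these markers and ratios in the EIF differences was not tested.

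In layers against whole muscle on U133A, 20 of 77 EIF probe sets were past the threshold and higher in layers (26.0%, against 18.6% of all 10533 probe sets tested) and 15 were lower (19.5%, against 30.1%). On U133B, 5 of 20 were higher (25%, against 20.5% of 10547) and 2 were lower (10%, against 22.3%). The median log2 difference of the EIF probe sets was 0.17 on U133A and 0.091 on U133B, beside medians of -0.18 and -0.21 over all probe sets tested. A log2 difference of an EIF probe set is therefore larger by 0.18 on U133A and by 0.21 on U133B when counted from the median of its table.

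The split between higher and lower depended on how the arrays were brought to a common scale. After quantile normalization 17 EIF probe sets on U133A were higher and 16 lower, with 2073 and 2043 of all probe sets and a median over all of 0.0021. When the arrays were instead scaled to the 100 probe sets that both array types carry, an alternative chosen after the data were seen, the numbers were 12 and 24, with 1137 and 4244 of all and a median over all of -0.47. Of the probe sets called, the higher share moved from 57.1% of the EIF probe sets (38.3% of all) to 51.5% (50.4%) and 33.3% (21.1%). On U133B the same settings gave 4 higher and 3 lower, then 4 higher and 12 lower of 21, so the higher share went from 71.4% (47.8% of all) to 57.1% (55.7%) and 25% (7.78%). A total of 20 of the 35 U133A calls and 5 of the 7 U133B calls were past the threshold, in the same direction, under every alternative setting in which the probe set was tested, these scalings and the removal of each array included. The 20 include 208707_at of EIF5 and 214314_s_at of EIF5B, which passed the filter only through 1 side, so their calls are a description. Of the 74 EIF probe sets on U133A that reached the filter on both sides, 19 were called higher and 13 lower. Over all probe sets these numbers were 1761 and 2124 of 8766.

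**Figure D1:**
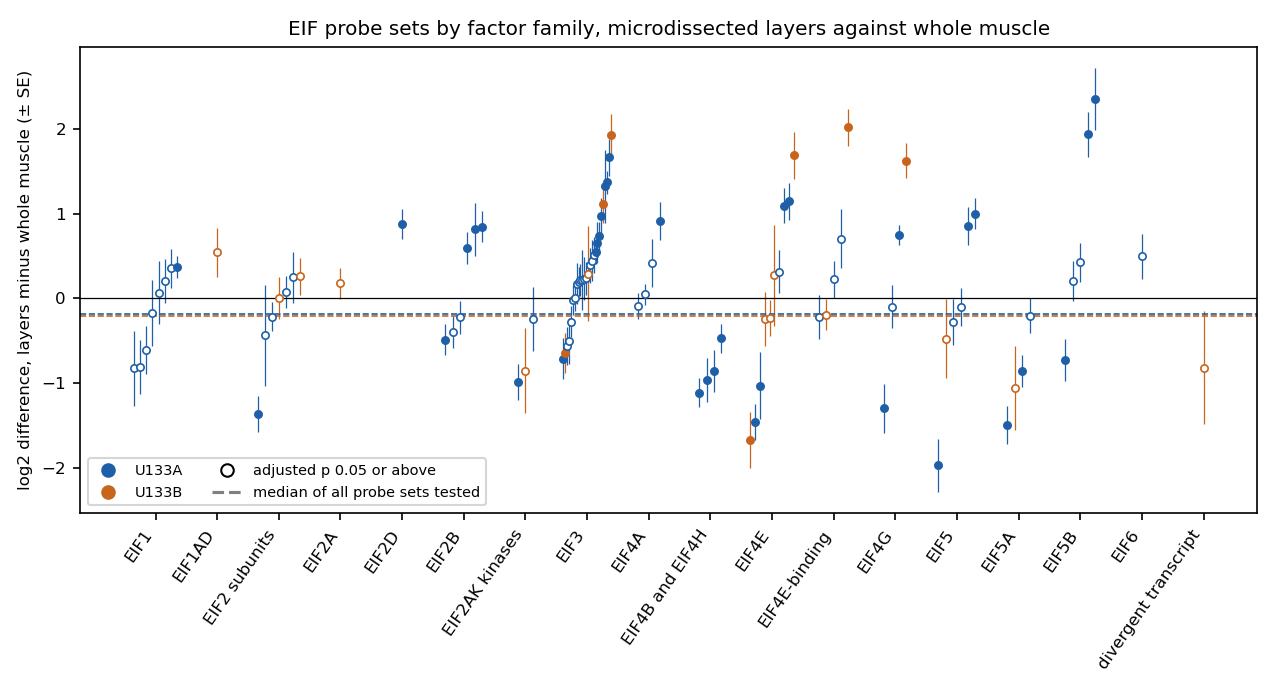
Log2 difference of each EIF probe set tested, layers minus whole muscle, by factor family, with bars of ± 1 SE. Filled points are past an adjusted p of 0.05, blue is U133A and orange U133B, and the dashed lines give the medians of all probe sets tested, -0.18 and -0.21. All 4 points of EIF4B and EIF4H lie below 0, while EIF2B, EIF3, EIF4E, EIF4G, EIF5 and EIF5B have filled points on both sides.

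Among the factors that prepare the small subunit and its tRNA, most probe sets did not pass. EIF1, which guards start codon selection, had 1 of its probe sets past the threshold: 211956_s_at read 56479.9 and 58012 on the orbital layer arrays, 63273 and 61692.5 on the global layer arrays, 43889 and 51676 on the lateral rectus arrays, and 40951 and 49510.5 on the medial rectus arrays. Every layer array was above every whole-muscle array, at a log2 difference of 0.37 ± 0.13 (SE; adjusted p = 0.0299), a call kept under 10 of 16 alternative settings and lost after quantile normalization (0.067). The other 7 probe sets of EIF1, EIF1AX and EIF1B ranged from -0.82 to 0.35 and none passed.

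EIF2 is the GTP-binding trimer that carries the initiator tRNA. Its alpha subunit EIF2S1, the site that the EIF2AK kinases phosphorylate, read 1095 and 1123.5 on the orbital layer arrays, 1071.5 and 780.2 on the global layer arrays, 3428 and 2112 on the lateral rectus arrays, and 2604 and 2408.5 on the medial rectus arrays at 201142_at. All 4 layer arrays were below all 4 whole-muscle arrays, with a log2 difference of -1.37 ± 0.21 (adjusted p = 4.7e-04), or 2.58-fold lower. Neither of the other EIF2S1 probe sets passed, at 0.25 ± 0.30 for 201143_s_at and 0.074 ± 0.19 for 201144_s_at. The beta subunit EIF2S2 was at -0.22 ± 0.17 and the gamma subunit EIF2S3 between -0.43 and 0.26 over 3 probe sets, with overlapping arrays.

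EIF2B, the exchange factor that reloads EIF2 with GTP, had probe sets on both sides. EIF2B4, its delta subunit, read 5578 and 5399 on the orbital layer arrays, 5329.5 and 6178 on the global layer arrays, 3000.2 and 2501 on the lateral rectus arrays, and 2973.5 and 4262 on the medial rectus arrays at 215482_s_at. Layers were higher without overlap, by 0.85 ± 0.19 (adjusted p = 0.00315). A second EIF2B4 probe set and the EIF2B1 probe set were also past the threshold, at 0.59 ± 0.19 and 0.81 ± 0.31; both are named here after their values were seen, and the EIF2B1 call, at an adjusted p of 0.0462, was kept under 6 of 16 alternatives. EIF2B2 was lower in layers by -0.49 ± 0.18 (adjusted p = 0.0439), a call kept under 8 of 16, while EIF2B3 and EIF2B5 did not pass, at -0.22 and -0.40. EIF2D, a factor that can place tRNA on the small subunit without EIF2, read 6107 to 9283 in layers and 3388 to 4477 in whole muscle, a difference of 0.87 ± 0.18 (adjusted p = 0.00209) that held under all alternatives. EIF2A, another protein that delivers tRNA, was at 0.18 ± 0.18 on U133B and did not pass. Its sign turned under both other scalings, to -0.86 after quantile normalization and -0.88 with the shared probe sets, where it was past the threshold.

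Of the 4 EIF2AK kinases, 1 was past the threshold. EIF2AK1, the heme-regulated kinase, read 1031 and 1171 on the orbital layer arrays, 1814 and 1345 on the global layer arrays, 2831 and 2896 on the lateral rectus arrays, and 2484 and 2200.5 on the medial rectus arrays at 217736_s_at. Whole muscle was higher on every array, and the log2 difference, layers minus whole muscle, was -0.98 ± 0.21 (adjusted p = 0.00297) and held under all alternatives. EIF2AK2, the kinase activated by double-stranded RNA, read 3074 and 1633 on the orbital layer arrays, 4213 and 1059 on the global layer arrays, 3237 and 1907 on the lateral rectus arrays, and 3291 and 2161 on the medial rectus arrays at 213294_at. Its values overlapped between all groups, with differences of up to 4213 against 1059 between the arrays of 1 group, and its log2 difference was -0.24 ± 0.38. The U133B probe set of EIF2AK2 was at -0.85 ± 0.50 (adjusted p = 0.184). EIF2AK3, the kinase of the endoplasmic reticulum, did not reach the filter: 218696_at ranged from 205 to 364 in layers and from 129 to 541 in whole muscle. EIF2AK4, the kinase that senses amino acid shortage, reached it between the layers on 1 probe set and between the recti on another, and in neither case passed.

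EIF3 is the largest initiation factor and binds the small subunit, EIF4G and the mRNA. Over 22 U133A probe sets, 7 were past the threshold and higher in layers, 1 was lower, 17 were above 0, and the median was 0.23. That median fell to 0.077 after quantile normalization, with 13 above 0, 4 called higher and 2 lower, and to -0.049 with the shared probe sets as scale, with 10 above 0, 3 called higher and 4 lower. The direction of the family as a whole thus depended on the scale, and the calls below are those of single subunits.

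EIF3E had the smallest p of the EIF probe sets on U133A. The probe set 208697_s_at read 35734.5 and 37629.7 on the orbital layer arrays, 45249 and 46032 on the global layer arrays, 16128 and 16680.2 on the lateral rectus arrays, and 15073 and 15449 on the medial rectus arrays. Every layer array was above every whole-muscle array, a difference of 1.37 ± 0.14 (adjusted p = 3.9e-05) or 2.59-fold. EIF3L, another subunit, read 14312 and 18171 on the orbital layer arrays, 18660 and 24486 on the global layer arrays, 8327.5 and 5782 on the lateral rectus arrays, and 5478 and 4472.5 on the medial rectus arrays. The groups did not overlap, and the difference was 1.66 ± 0.22 (adjusted p = 1.6e-04). EIF3D, the subunit that can itself bind the cap of some mRNAs, read 8686 and 10925 on the orbital layer arrays, 5900.5 and 12101 on the global layer arrays, 4372 and 4960.5 on the lateral rectus arrays, and 4853 and 4383 on the medial rectus arrays on U133A. Global layer replicate 1 was the lowest layer array and was still above every whole-muscle array, with a difference of 0.97 ± 0.21 (adjusted p = 0.00326). These 3 calls held under all alternatives.

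Further EIF3 subunits were past the threshold with smaller or less stable differences. EIF3H was higher by 0.55 ± 0.14 (adjusted p = 0.00751), but was at -0.022 after quantile normalization. EIF3M was higher by 0.73 ± 0.17 at 202231_at (adjusted p = 0.00374), a call lost under both other scalings, and its second probe set was at 0.39 and did not pass. EIF3A, the scaffold of the complex, read 1921 to 3370.3 in layers and 313 to 1542 in whole muscle at 200596_s_at, a difference of 1.32 ± 0.43 (adjusted p = 0.0239), lost without orbital layer replicate 1, while its other kept probe sets were at -0.51 and -0.28. EIF3B was the one lower EIF3 call on U133A, at -0.71 ± 0.24 (adjusted p = 0.0283) with overlapping arrays, and its second U133A probe set was at -0.56. On 3 probe sets whose annotation lists both EIF3C and its near-identical copy EIF3CL, which cannot be told apart here, the differences ran from 0.23 to 0.51 and none passed. EIF3F, EIF3G, EIF3I and EIF3J did not pass on U133A, with differences from -0.017 to 0.21.

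**Figure D2:**
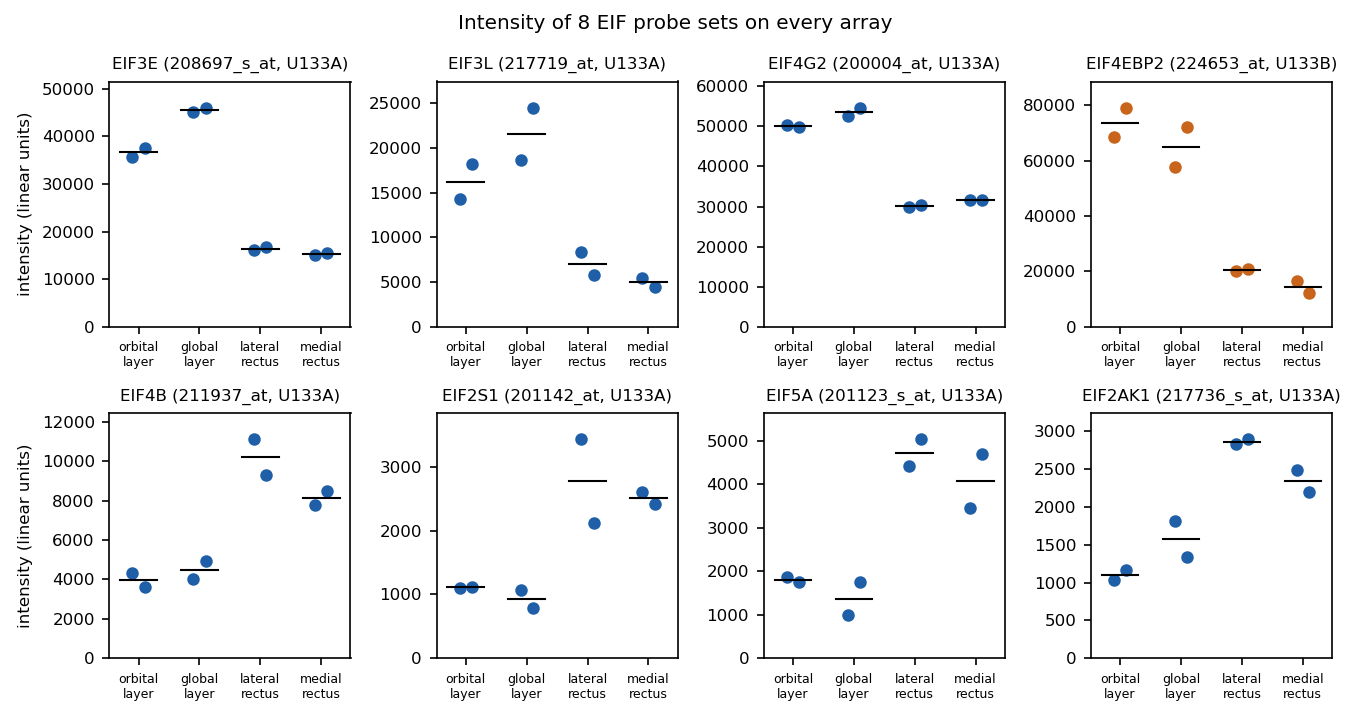
Intensity (linear units, each axis from 0) of 8 EIF probe sets on every array; points are arrays and lines the mean of the 2 arrays of a group. In the upper row all layer arrays lie above all whole-muscle arrays (EIF3E, 35734.5 to 46032 against 15073 to 16680), and in the lower row all lie below (EIF4B, 3627 to 4944 against 7768 to 11110).

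The cap-binding proteins had calls in both directions. EIF4E, the cap-binding protein itself, read 1454.5 and 1809 on the orbital layer arrays, 2852 and 2299 on the global layer arrays, 5947 and 5789 on the lateral rectus arrays, and 5613 and 5041 on the medial rectus arrays at 201435_s_at. This probe set was lower in layers by -1.46 ± 0.21 (adjusted p = 3.1e-04), and the U133B probe set 242674_at was lower as well, by -1.66 ± 0.33 (adjusted p = 0.00204). The probe set 201437_s_at went the other way and read 4170.5 and 3885 on the orbital layer arrays, 5613 and 5633 on the global layer arrays, 2933 and 2006 on the lateral rectus arrays, and 2156 and 1943 on the medial rectus arrays. It was higher in layers by 1.09 ± 0.20 (adjusted p = 0.00116), and all 3 calls held under all alternatives.

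The EIF4E relatives also disagreed among their probe sets. EIF4E2, a cap-binding homologue with a part in translational repression, was higher at 213571_s_at, with 3376 to 4071 in layers and 1171 to 2326 in whole muscle, by 1.14 ± 0.22 (adjusted p = 0.00146). It was lower at 213570_at, by -1.03 ± 0.40 (adjusted p = 0.0494), a probe set that passed the filter only through whole muscle (mean 955.9, against 495.1 in layers) and whose call was kept under 4 of 10 alternatives. EIF4E3 was higher on U133B at 225941_at, where layers read 7408 to 11331 and whole muscle 1801 to 4247, by 1.68 ± 0.28 (adjusted p = 6.1e-04), while its probe sets 225939_at and 225940_at were at 0.27 and -0.24 and did not pass.

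EIF4EBP2, a 4E-binding protein that sequesters EIF4E when it is not phosphorylated, had the smallest p of the EIF probe sets on U133B. At 224653_at it read 68375 and 79079 on the orbital layer arrays, 57606 and 72162 on the global layer arrays, 20293.5 and 20726 on the lateral rectus arrays, and 16477 and 12158 on the medial rectus arrays. The lowest layer array was far above the highest whole-muscle array, a 4.04-fold or 2.01 ± 0.22 log2 difference (adjusted p = 4.1e-05). That difference was 0.78 under the setting with the smallest value and past the threshold under all alternatives. The other kept EIF4EBP2 probe sets did not follow it, with -0.22 ± 0.26 on U133A and -0.19 ± 0.19 on U133B. EIF4EBP1 stayed under the filter in all comparisons, at 375 to 880 in layers and 308 to 475 in whole muscle. EIF4ENIF1, the protein that carries EIF4E into the nucleus, was at 0.22 ± 0.21, and 214919_s_at, whose annotation lists several symbols with EIF4EBP3 among them, at 0.70 ± 0.35 (adjusted p = 0.112).

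EIF4G1, the scaffold that joins EIF4E, EIF4A and EIF3, read 875 and 536.5 on the orbital layer arrays, 1049 and 805 on the global layer arrays, 1522 and 1983 on the lateral rectus arrays, and 1539 and 3085 on the medial rectus arrays at 208624_s_at. Layers were lower without overlap, by -1.29 ± 0.29 (adjusted p = 0.0034), while 208625_s_at showed -0.099 ± 0.25 and did not pass. EIF4G2, a related scaffold that lacks the EIF4E site, read 50419 and 49888 on the orbital layer arrays, 52479 and 54623 on the global layer arrays, 29974 and 30347 on the lateral rectus arrays, and 31590.5 and 31718 on the medial rectus arrays on U133A. Arrays of a group lay close together, and layers were higher by 0.75 ± 0.12 (adjusted p = 4.5e-04), a call that was lost after quantile normalization, where the difference was 0.30.

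Probe sets of the helicase EIF4A passed in 1 of 4 cases. EIF4A3, which acts in splicing and mRNA decay, was at -0.089 ± 0.15, and the probe sets whose annotations list EIF4A1 or EIF4A2 with small RNA symbols or others were at 0.046, 0.41 and 0.91. Of these only 211787_s_at, whose list holds EIF4A1, passed (adjusted p = 0.00605); it read 8349 and 10113 on the orbital layer arrays, 4692 and 6629 on the global layer arrays, 3763 and 3468 on the lateral rectus arrays, and 3562 and 4491 on the medial rectus arrays. Its call held under all alternatives, although the source among the listed symbols is not settled by the annotation.

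EIF4B and EIF4H, the RNA-binding cofactors of the helicase, were the one family of more than 1 probe set in which every probe set was past the threshold in one direction. EIF4B read 4307 and 3626.5 on the orbital layer arrays, 4015 and 4944 on the global layer arrays, 11109.8 and 9299 on the lateral rectus arrays, and 7768 and 8479 on the medial rectus arrays at 211937_at. The layer arrays were all below the whole-muscle arrays, by -1.11 ± 0.17 (adjusted p = 4.0e-04), or 2.16-fold. The other EIF4B probe sets, 211938_at and 219599_at, were lower by -0.86 ± 0.25 (adjusted p = 0.0132, 0.0504 with no filter) and -0.97 ± 0.26 (adjusted p = 0.00892), each with 1 or more arrays inside the range of the other side. EIF4H was lower by -0.47 ± 0.17 (adjusted p = 0.0343), a call kept under 11 of 16 alternatives. All 4 were below 0 and past the threshold under quantile normalization and with the shared probe sets as scale, where the family medians were -0.93 and -1.20.

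EIF5, which triggers GTP hydrolysis by EIF2 at the start codon, had calls in both directions. At 208706_s_at it was higher in layers, 5953 to 7539 against 2737 to 4070.3, by 1.00 ± 0.18 (adjusted p = 0.00112), and at 208705_s_at by 0.85 ± 0.23 (adjusted p = 0.00902, lost under both other scalings). At 208707_at it read 516 and 256.5 on the orbital layer arrays, 608 and 471 on the global layer arrays, 1699.8 and 1988 on the lateral rectus arrays, and 1382 and 1905 on the medial rectus arrays. That probe set was 3.92-fold lower in layers, -1.97 ± 0.31 (adjusted p = 4.7e-04). It passed the filter only through whole muscle (mean 1744, against 462.9 in layers), so its call and fold are a description. The probe sets 208290_s_at and 208708_x_at, at -0.10 and -0.28, did not pass.

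EIF5B, the GTPase that joins the subunits, had calls on both sides. At 214314_s_at it read 1453 and 2039 on the orbital layer arrays, 1695 and 1876 on the global layer arrays, 648.5 and 263 on the lateral rectus arrays, and 203 and 406 on the medial rectus arrays. Layers were 5.09-fold higher, 2.35 ± 0.37 (adjusted p = 4.6e-04), and 201024_x_at was higher by 1.93 ± 0.27 (adjusted p = 2.4e-04), both under all alternatives. The probe set 214314_s_at passed the filter only through the layers, where it is bright (mean 1766, against 380.2 in whole muscle and a filter of 654), so its call and fold are a description. In contrast 201026_at was lower by -0.72 ± 0.25 (adjusted p = 0.0293) with overlapping arrays, a call kept under 8 of 15 alternatives, and 201025_at and 201027_s_at, at 0.42 and 0.20, did not pass.

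EIF5A, which relieves ribosomes stalled on difficult peptide bonds, was lower in layers at 2 of its 3 kept U133A probe sets. At 201123_s_at it read 1859 and 1764 on the orbital layer arrays, 1000.1 and 1748 on the global layer arrays, 4415 and 5036 on the lateral rectus arrays, and 3447 and 4694.5 on the medial rectus arrays. The difference was -1.49 ± 0.23 (adjusted p = 4.1e-04), and at 201122_x_at it was -0.86 ± 0.19 (adjusted p = 0.00303), both under all alternatives. At 213753_x_at it was -0.20 ± 0.20, and the paralogue EIF5A2 was at -1.06 ± 0.49 on U133B, neither past the threshold. EIF6, which keeps the large subunit apart until it is needed, was at 0.50 ± 0.26 (adjusted p = 0.138).

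**Figure D3:**
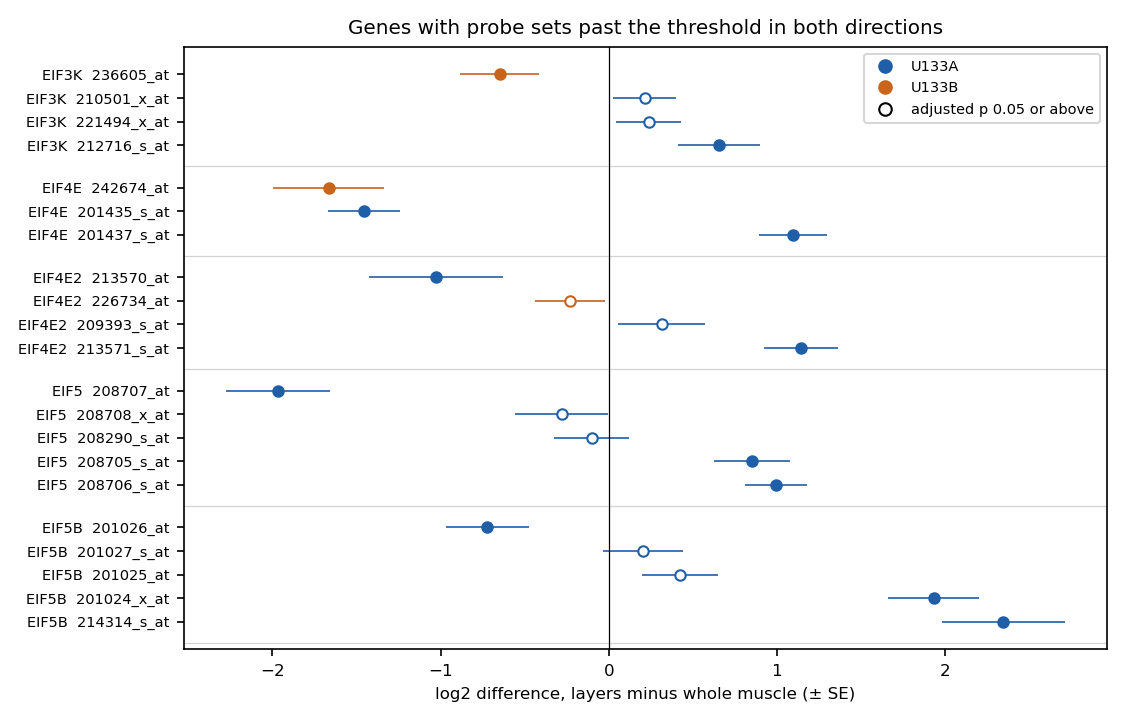
Log2 difference (± SE), layers minus whole muscle, of all tested probe sets of the 5 genes with calls in both directions. Filled points are past an adjusted p of 0.05; EIF5 spans -1.97 to 1.00 and EIF5B -0.72 to 2.35.

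Counted by gene over both array types, with multi-symbol probe sets left out, 44 EIF genes were tested between layers and whole muscle. Of these, 14 had calls only higher (31.8%), 8 only lower (18.2%), 5 in both directions (11.4%) and 17 none (38.6%). Over all 11260 genes counted the same way these shares were 21.7%, 27.7%, 5.42% and 45.2%. A gene can have calls in both directions only with several tested probe sets, and among such genes it was 5 of 23 EIF genes (21.7%) and 610 of 3916 genes in all (15.6%). Leaving out, as decided after the data were seen, the 3 called EIF probe sets whose mean was under the filter on 1 side, 214314_s_at, 208707_at and 213570_at, EIF3K, EIF4E and EIF5B were the 3 genes with calls in both directions. EIF3K is among the 5 through 212716_s_at on U133A, at 0.66 ± 0.25 (adjusted p = 0.0429), and 236605_at on U133B, at -0.65 ± 0.24 (adjusted p = 0.0412), the first named here after its value was seen and kept under 5 of 16 alternatives, the second under 7 of 16. On U133A alone, 9 of the 16 EIF genes with several tested probe sets had both signs among them (56.2%), as did 904 of 1706 genes in all (53%). The ACTB 3′ to 5′ ratios given above moved with the same contrast, and their part in opposite calls of 1 gene was not tested.

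The same 100 probe sets are present on both arrays, which gives a second measurement of 3 EIF genes. EIF3D was higher in layers by 0.97 on U133A and by 1.93 on U133B, EIF4G2 by 0.75 and 1.62, and EIF3F, an EIF3 subunit, by 0.20 and 1.11. The U133B call of EIF3F (adjusted p = 0.00174) was lost under both other scalings. U133B gave the larger value by 0.96, 0.87 and 0.91, and over all 100 the median gap was 0.77 (interquartile range 0.58 to 0.95), with 98 of 100 larger on U133B. The size of a difference on U133B is therefore not set beside one on U133A.

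**Figure D4:**
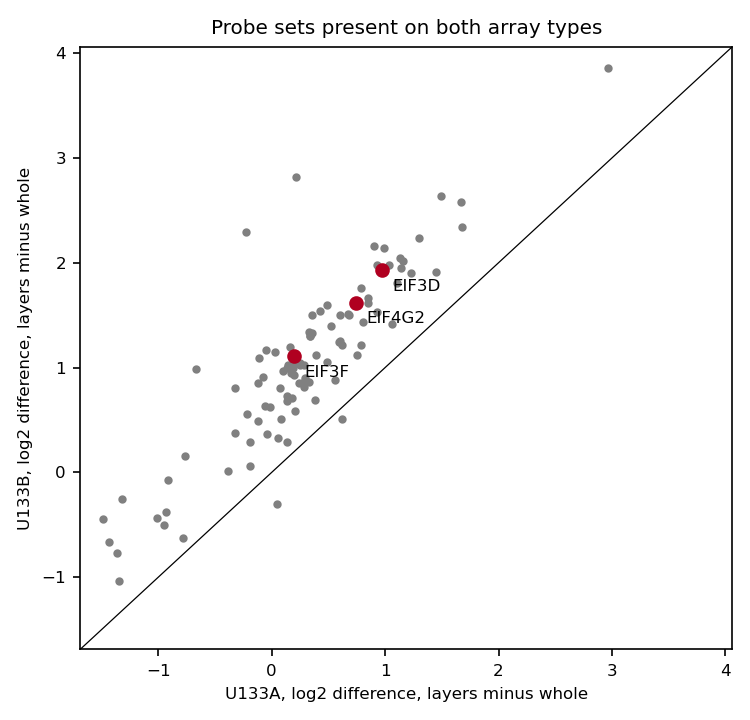
Log2 difference, layers minus whole muscle, of the 100 probe sets on both array types, U133A across and U133B up, with the line of equal values. EIF3D, EIF4G2 and EIF3F (red) lie above that line, as do 98 of the 100.

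Orbital layer, whose fibres are fine and rich in mitochondria, was compared with global layer to ask how the inner and outer parts of the muscle differ. No EIF probe set passed in limma (0 of 76 on U133A, against 0.409% of all 9532 tested, and 0 of 20 on U133B, against 0.021% of 9510), and 6 and 0 had an unadjusted p under 0.05. No EIF probe set kept a 2-fold distance in each of the 4 pairings of an orbital with a global array, which was the case for 1.02% and 1.22% of all probe sets. The orbital and global arrays did not overlap for 37 of 76 EIF probe sets on U133A and 5 of 20 on U133B, against 41.9% and 38.6% of all. Medians were -0.048 and 0.067, beside -0.037 and 0.035 over all probe sets. Without orbital layer replicate 1 on U133A, and without global layer replicate 1 on U133B, the count past the threshold was again 0 (of 77 and 20).

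No difference given here between the layers was past the threshold. The largest lower value in orbital layer was at 241843_at on U133B, whose annotation lists SNORA28 and EIF5, with 715 and 796 in orbital and 1719.6 and 1352.5 in global layer. The arrays did not overlap, and the difference was -1.02 ± 0.44 (unadjusted p = 0.0522, adjusted p = 0.644). Both orbital values were under the U133B filter of 803. This probe set thus passed the filter only through global layer, and its difference is a description. EIF1AX, the X-linked EIF1A that holds the small subunit in its scanning form, read 1260 and 1551 in orbital and 2620.2 and 1958 in global layer at 201018_at. The difference was -0.70 ± 0.28 (unadjusted p = 0.0384, adjusted p = 0.489), and 201017_at and 201019_s_at were lower in orbital layer too, at -0.65 and -0.74, with no overlap at any of the 3. EIF4E was lower in orbital layer at both kept U133A probe sets, -0.66 ± 0.27 and -0.48 ± 0.24, although these had opposite signs between layers and whole muscle. EIF5A at 213753_x_at (2926 and 2962 against 4947 and 4043) was at -0.60 ± 0.25, EIF5 at 208705_s_at at -0.63 ± 0.29 and EIF2AK1 at -0.51 ± 0.29.

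In the other direction, EIF4G1 read 3186 and 3093 in orbital and 1478 and 2319 in global layer at 208625_s_at, a difference of 0.76 ± 0.29 (adjusted p = 0.47). EIF6 read 4630.2 and 5105 against 2287.5 and 3742, 0.73 ± 0.30 (adjusted p = 0.496). The probe set 211787_s_at, with EIF4A1 in its list, was at 0.72 ± 0.27 and had the smallest adjusted p of the EIF probe sets, 0.456. EIF5B at 201027_s_at was at 0.50 ± 0.24 and EIF3A at 200597_at at 0.56 ± 0.32. On U133B, EIF2AK2 at 242898_at and EIF2AK4 at 225164_s_at were at 1.09 ± 0.74 and 0.88 ± 0.65, both with overlapping arrays, as was EIF2S3 at 205321_at on U133A, at 0.73 ± 0.42. EIF4EBP2 at 224653_at, so far apart between layers and whole muscle, was at 0.19 ± 0.25 between the layers. On U133A the ACTB 3′ to 5′ ratio also differed between the layers, 5.30 and 5.87 in orbital and 2.84 and 2.88 in global layer, while that of GAPDH did not separate them, 1.73 and 2.00 in orbital and 2.92 and 1.497 in global layer. The part of these ratios in these differences was not tested.

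**Figure D5:**
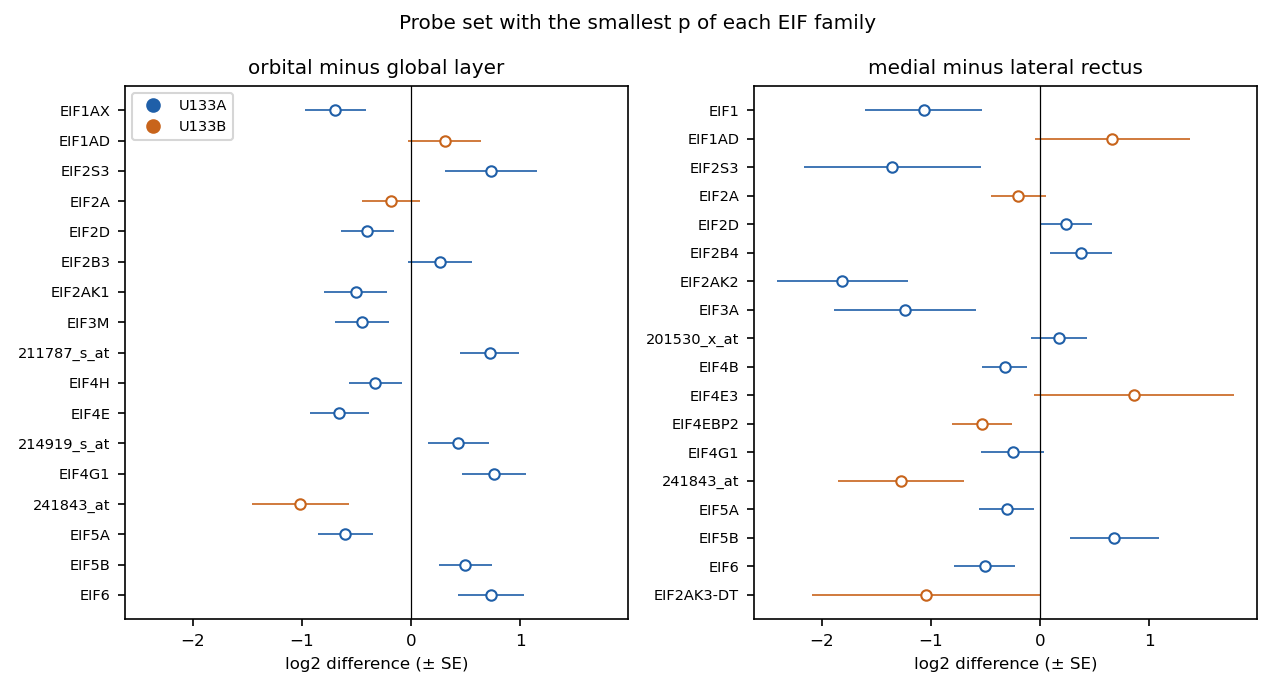
Log2 difference (± SE) of the EIF probe set with the smallest p in each factor family, orbital minus global layer on the left and medial minus lateral rectus on the right. Open points are not past an adjusted p of 0.05, and all points are open. EIF1AX (-0.70) and EIF4G1 (0.76) on the left and EIF2AK2 (-1.81) on the right had unadjusted p-values under 0.05, among others on the left. The EIF2AK2 probe set on the right passed the filter only through lateral rectus.

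Medial rectus, which draws the eye toward the nose, was compared with its antagonist, lateral rectus. No EIF probe set passed in limma, 0 of 80 on U133A and 0 of 24 on U133B, and neither did any other (0% of 11907 and 0% of 11836), while 1 and 0 EIF probe sets had an unadjusted p under 0.05. A 2-fold distance in each of the 4 pairings was seen for none of them, against 0.579% and 1.66% of all. The arrays did not overlap for 24 of 80 and 7 of 24, against 28.6% and 32.1%. Medians were -0.039 and -0.13, beside 0.0047 and -0.026 over all.

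EIF2AK2 at 204211_x_at was the one with the small unadjusted p. It read 1036 and 305 in medial and 1723 and 2269 in lateral rectus, a difference of -1.81 ± 0.60 (unadjusted p = 0.016, adjusted p = 0.999). By its mean log2 intensity this probe set was under the filter of 654 in medial rectus. It passed only through lateral rectus, so its difference is a description. The medial arrays differed from each other by more than the lower lateral array differed from the higher medial one, and the other EIF2AK2 probe sets were at 0.10 and -0.10. EIF3A at 200596_s_at read 1163 and 313 against 1542 and 1311, -1.24 ± 0.65, and EIF3B at 236274_at on U133B was at -1.52 ± 0.86, each with 1 low medial array. By the same measure, 200596_s_at of EIF3A passed the filter only through lateral rectus. EIF2S3 at 205321_at was at -1.35 ± 0.81 and turned to 0.15 without medial rectus replicate 1. The probe set 241843_at on U133B was at -1.27 ± 0.57 and EIF1 at 217672_x_at at -1.07 ± 0.54, both without overlap. EIF4EBP2 was lower in medial rectus at 208770_s_at and 224653_at, -0.61 ± 0.41 and -0.53 ± 0.27. EIF5B had 4 of 4 kept probe sets above 0, from 0.23 to 0.68, and EIF5A 3 of 3 below 0, from -0.30 to -0.23, none past the threshold.

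Of the other genes of these pathways, from lists of symbols, some probe sets were past the threshold between layers and whole muscle, and none in the other 2 comparisons. Of the cap, poly(A) and initiation partners, 10 of 22 U133A probe sets were higher and 4 lower, and 2 and 1 of 7 on U133B. Among the lower U133A calls, 201211_s_at of DDX3X passed the filter only through whole muscle (mean 1055, against 456.8 in layers), so it is a description. PABPC1, the poly(A)-binding protein that joins EIF4G, was higher by 1.41 ± 0.17 (adjusted p = 1.0e-04) and PAIP2, which displaces it from poly(A), by 2.07 ± 0.24 on U133B (adjusted p = 6.0e-05). PABPC3, a close copy of PABPC1 whose probes may read the same RNA, was higher by 1.28. The elongation and termination factors had 4 higher and 3 lower of 17 on U133A, and 2 and 0 of 7 on U133B. EEF2, the translocase of elongation, was lower at 204102_s_at and 200094_s_at, by -1.36 ± 0.24 and -1.32 ± 0.25, and EEF1D was higher at 214394_x_at (1.26) and lower at 214395_x_at (-1.22).

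In the mTORC1 pathway, whose kinase phosphorylates the 4E-binding proteins, 5 of 19 U133A probe sets were higher and 1 lower, and 4 and 0 of 16 on U133B. RHEB, the GTPase that activates mTORC1, was higher by 1.34 ± 0.16 (adjusted p = 1.2e-04), and RPS6KB1, the S6 kinase, by 1.46 ± 0.21 on U133B (adjusted p = 2.4e-04). PDPK1 was higher at 224986_s_at (1.97) and lower at 32029_at (-0.61). It was also called higher at 204524_at, which passed the filter only through the layers; no fold is given because whole muscle, at 69.3 to 376.6, reached below the floor of 146. The integrated stress response, the program that follows EIF2S1 phosphorylation, had 2 higher and 5 lower of 12 on U133A and 1 and 1 of 5 on U133B. DDIT3, a transcription factor of that program, was lower by -1.08 ± 0.23 (adjusted p = 0.00273), GADD45A higher by 1.54 ± 0.26 and DNAJC3, an inhibitor of EIF2AK kinases, higher by 2.46 ± 0.26 on U133B. These are shares beside 18.6% and 30.1% of all probe sets called higher and lower on U133A and 20.5% and 22.3% on U133B. PAIP2, EEF2, RHEB, RPS6KB1 and DNAJC3 each have further probe sets that were not tested or did not pass.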

How the data were processed

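Values were taken from 1 deposited table per array type; per the labels, human U133A and U133B arrays were used, and the deposited values are linear intensities of which the summary software is not given in the sources used here. Every array has a trimmed mean near 1500 (1500.3 to 1500.6 on U133A, 1500.2 to 1500.7 on U133B), and how this arose is not given in the sources used here. Columns were mapped to groups by sample labels. All arrays of a type were set to 1 trimmed mean (2% cut), a floor was put at the 20th percentile over arrays (146 for U133A, 218 for U133B), and values were converted to log2. The 68 control probe sets per table were left out. Probe sets with a mean log2 intensity at or above the pooled median (654 and 803) were fitted with limma 3.58.1 in R 4.3.3 (lmFit, eBayes with a variance trend), without a block, on the arrays compared only. Tables and plots used Python 3.11.15, pandas 2.3.3 and matplotlib 3.10.9. Array number, 2 per group, limits the precision.

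Gene symbols came from the platform annotation, in which 9 EIF probe sets list several symbols and 124 list 1. Named are EIF probe sets past the threshold (on U133A the 15 per direction with the smallest p), the 10 largest differences per direction and comparison, the smallest p per family, the EIF2AK and EIF4EBP genes, and at most 4 called genes per pathway list. The members, lists and rules were chosen with earlier results of these data known. Alternatives were quantile normalization, other floors and filters, variances without a trend, all 4 groups in one fit, a replicate block, each array left out and, chosen after seeing the data, scaling to the probe sets shared by both array types. Scripts were tested on simulated data.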

Additional observations from a re-analysis of the deposited data

Results flagged for a closer look

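Within the 4 layer arrays or the 4 whole-muscle arrays of a named EIF probe set, 7 of 98 sets of 4 arrays held a value far from the other 3 by Dixon's criterion. About 1 in 20 of all sets examined would meet it by chance if the 4 arrays came from 1 group, whereas each set here holds 2 groups. On U133A, EIF5A at 201123_s_at was lowest in layers on global layer replicate 1 (1000.1), EIF2S1 at 201142_at on global layer replicate 2 (780.2), and EIF4B at 219599_at was highest in layers on global layer replicate 1 (2274). EIF4B at 211938_at was lowest in whole muscle on lateral rectus replicate 1 (6540.5). On U133B, EIF3F at 200023_s_at was highest in whole muscle on lateral rectus replicate 1 (9447.7), EIF5A2 at 235296_at lowest on medial rectus replicate 1 (1025.9), and EIF2A at 223015_at highest in layers on global layer replicate 2 (17968.2).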

How the results depend on the processing

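With layers against whole muscle, the count of EIF probe sets past the threshold on U133B went from 7 to 16 when arrays were scaled to the shared probe sets and to 11 with no filter on low values. All other settings kept the counts of the 6 comparisons within 1.5 times, at 0 between layers and between recti and at 27 to 39 on U133A and 6 to 7 on U133B for layers against whole muscle. A replicate block for orbital against global layer gave 0 EIF probe sets on U133A and 0 on U133B, while all calls rose from 39 to 92 and from 2 to 26. The labels do not say whether equal replicate numbers share an animal or a batch. The replicate deviations of the 2 layers correlated at 0.233 on U133A and 0.0877 on U133B over probe sets. Single probe sets of EIF1, EIF4B and EIF2AK2 followed the number. Whether equal numbers share an animal or a batch was not tested. Between layers and whole muscle, 5 EIF genes were called in both directions. Without the probe sets whose mean was under the filter on 1 side, the number was 3. EIF4E2 and EIF5 left the count because the only lower call of each was at such a probe set.

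Signs turned for some named log2 differences. Between layers and whole muscle, quantile normalization gave EIF3H -0.022, EIF4EBP2 at 208770_s_at 0.31 and EIF2A -0.86, and the shared probe sets gave EIF1AD -0.51 and EIF2A -0.88. Between recti, quantile normalization gave EIF2A 0.011, and the shared probe sets gave EIF4EBP2 at 224645_at 0.010 and EIF2AK2 at 242898_at 0.092. Between layers, the shared probe sets gave EIF4EBP2 at 208770_s_at -0.083 and EIF2AK2 at 213294_at -0.042. Leaving out each array in turn, EIF2AK2 at 213294_at ran from -0.56 to 0.10 for layers against whole muscle. For medial against lateral rectus, EIF2S3 at 205321_at ran from -2.85 to 0.15, EIF3G from -1.74 to 0.040, 201530_x_at from -0.11 to 0.46, EIF4EBP2 at 208769_at from -0.71 to 0.32, EIF2AK2 from -0.28 to 0.48 at 213294_at and from -0.50 to 0.30 at 242898_at, EIF2AK3-DT from -2.69 to 0.60 and EIF4E3 at 238461_at from -0.067 to 1.38. For orbital against global layer, EIF4B at 219599_at ran from -1.05 to 0.056, 201530_x_at from -0.17 to 1.22, EIF4EBP2 from -0.076 to 0.16 at 208770_s_at and from -0.25 to 0.15 at 224645_at, EIF2AK2 at 213294_at from -0.91 to 1.08 and EIF2A from -0.43 to 0.062. The cause was not tested. The 2 arrays per group limit what can be called.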

Other observations

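A set of 3 probe sets of EIF1 on U133A split each group into a high and a low array. At 202021_x_at the higher array of a group was 2.13 to 2.77 times the lower, at 212130_x_at 1.58 to 2.55 times and at 212227_x_at 1.82 to 3.65 times, in all 4 groups, while at 211956_s_at it was 1.03 to 1.21 times. At the first 3, replicate 2 was the higher array in 4 of 4 groups, recti included. At 212225_at replicate 2 was higher in 0 of 4, but that probe set was under the floor on all 8 arrays. EIF4B at 211938_at also read higher on replicate 2 in all 4 groups, and EIF2AK2 at 213294_at read higher on replicate 1. Such an order was therefore not particular to EIF1, and its share over all probe sets was not counted. The cause of the EIF1 split was not tested.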
